A study of Mus musculus with 20 samples.

Results

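The 48 genes described here are the mouse genes of the major histocompatibility complex (MHC) and of antigen presentation that a rule on symbols picked out: every symbol that begins with H2-, together with B2m, Cd74, Tap1, Tap2 and Tapbp, among the 24411 symbols of the authors' tables. The rule used names and no measured value. Polyadenylated RNA was amplified by Smart-seq2 from pools of 10 to 15 oocytes or embryos, so each of the 20 samples is 1 pool. The B6CASTF1 samples, F1 hybrids of untreated animals, comprised zygotes in G1 (n = 3), zygotes in G2 (n = 3) and 2-cell embryos in G2 (2 samples analysed here). The C57BL/6J samples, of the inbred strain behind the mouse reference genome, comprised MII eggs (n = 3), G1 zygotes (n = 3), G2 zygotes (n = 3) and 2-cell embryos at G2 (n = 3), also untreated. All groups shared the same culture: oocytes were let go from dbcAMP, which holds meiosis, were matured and fertilized in vitro, and the embryos grew in KSOM medium with 5% oxygen. The sources used here name neither the direction of the B6CASTF1 cross nor the females or days behind each pool, so p-values measure the spread between pools and no more.

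The authors' 5 deposited tables compare consecutive stages within each strain and give no value for a single pool. Sequencing depth is therefore unknown, and neither values per pool nor the overlap between groups can be shown. For each gene and stage an approximate mean normalized count, called its level here, was worked out from its mean count in that strain and the fold changes. A gene is said to have risen or fallen where the authors' adjusted p was under 0.05, and errors of log2 fold changes are the authors' SE. Where a level lies under 1, the levels and the adjusted p are given without a fold. The strains were normalized separately, so their levels stand side by side without a test.

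MHC class I molecules hold short peptides from inside the cell at its surface, as a heavy chain joined to the light chain beta-2 microglobulin. The peptides are cut by the proteasome, pumped into the endoplasmic reticulum by the transporter Tap1/Tap2 and loaded with the help of tapasin, the product of Tapbp. Class II molecules, the work of professional antigen-presenting cells, carry peptides from endocytosed proteins and are escorted by the invariant chain, Cd74. In the preimplantation mouse embryo the best known member family is Qa-2, encoded in the Q region, which has been tied genetically to the speed of early cleavage and is called the Ped gene product.

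In GENCODE M21, on the GRCm38 build, 44 of the 48 symbols were found. Of these, 42 lie on chromosome 17 between 33915899 and 37483552, while B2m lies on chromosome 2 (122147686 to 122153083, plus strand) and Cd74 on chromosome 18 (60803848 to 60812652, plus strand). H2-L, H2-Q8, H2-Q9 and H2-T9 were not found there by symbol. By adjusted p, 36 members were tested in at least 1 table and 12 in none. H2-M1, H2-M11, H2-M9 and H2-Ob had a mean count of 0 in both strains. The other 8 without a test were H2-Eb2, H2-L, H2-M10.1, H2-M10.2, H2-M2, H2-M3, Tap1 and Tap2. H2-Ke6 carries the prefix by its place in the locus only. It is another name of Hsd17b8, a metabolic dehydrogenase, and takes no part in antigen presentation.

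As a check of the labels, the summed level of 7 oocyte genes was 468048, 130387 and 27123 in B6CASTF1 G1 zygotes, G2 zygotes and 2-cell embryos, and 490095, 234240, 99167 and 21696 in C57BL/6J MII eggs, G1 zygotes, G2 zygotes and 2-cell embryos. At the 2-cell step 6 of the 7 fell in B6CASTF1 and 5 in C57BL/6J, against 26.8% and 25.3% of all genes, while Zp3 rose in both. Between B6CASTF1 G2 and G1 zygotes 5 fell, against 9.63% of all genes, and Nlrp5 rose. The summed level of 6 genes of the 2-cell stage was 2466, 10599 and 27352 over the B6CASTF1 stages, and 426, 1283, 3138 and 6524 over the C57BL/6J stages. Arg2 made up most of the zygote sums, at 2099 and 9592 in B6CASTF1 and 986 and 2826 in C57BL/6J G1 and G2 zygotes. It was not called at the 2-cell step in either strain, where 5 of the 6 genes rose in B6CASTF1 and 4 in C57BL/6J, against 33.1% and 25% of all genes. The 10 markers of cumulus and granulosa cells summed to 1464 in B6CASTF1 2-cell embryos against 1428 in G2 zygotes, and to 302 in C57BL/6J 2-cell embryos against 845 in G2 zygotes, and these sums hide opposite moves. Cyp19a1, the aromatase gene, fell to 24.5 in B6CASTF1 2-cell embryos against 1338 in G2 zygotes, and to 4.05 in C57BL/6J 2-cell embryos against 810 in G2 zygotes (adjusted p = 1.23e-56 and 2.33e-22 in the authors' deposited tables). Amhr2, a hormone receptor gene, rose with the members, to 891 in B6CASTF1 and 286 in C57BL/6J 2-cell embryos, against under 1 in the G2 zygotes of both (adjusted p = 2.72e-18 and 0.00235 in the authors' deposited tables). Ptgs2 also rose in B6CASTF1 (203 in 2-cell embryos against 0.895 in G2 zygotes, adjusted p = 7.62e-06 in the authors' deposited table). Tnfaip6, without an adjusted p, was at 299 in B6CASTF1 2-cell embryos against 7.50 in G2 zygotes. Amh was at 0 in every group, and the part of such cells in the members' changes was not tested. Markers of sperm summed to at most 190 in any group. Mean normalized counts over all genes summed to 20428114 in B6CASTF1 and 19348115 in C57BL/6J. In a table of means, fewer transcripts per cell and fewer cells with transcripts cannot be told apart.

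Most calls among the members came at the step into the 2-cell embryo. In B6CASTF1, 33 members were tested between 2-cell embryos and G2 zygotes, and 20 rose (60.6%) while 1 fell (3.03%). Over all genes tested there, 33.1% rose and 26.8% fell. The members' median log2 fold change was 4.78, against 0.55 over all genes tested, in the authors' deposited table. In C57BL/6J, 21 members were tested at that step, 9 rose (42.9%) and 3 fell (14.3%), and over all genes 25% rose and 25.3% fell. Their median log2 fold change was 1.57, against 0.17 over all genes tested, in the authors' deposited table. A share of the calls rests on genes near 0 in the G2 zygote: 13 of the 21 calls in B6CASTF1 and 6 of the 12 in C57BL/6J had a level of at least 1 at both stages.

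Few members changed before. Between B6CASTF1 G2 and G1 zygotes (the zygotic step) 29 members were tested, of which H2-T9 rose and H2-K1 fell, while 9.63% of all genes rose and 9.63% fell. Between C57BL/6J G2 and G1 zygotes 22 were tested, of which H2-T23 and H2-T3 rose and 0 fell, while 5.01% of all genes rose and 2.87% fell. Between C57BL/6J G1 zygotes and MII eggs 24 were tested and the authors' DESeq2 test called 0, with 1 at an unadjusted p under 0.05, H2-T3. Over all genes 1.62% rose and 1.12% fell at that step. The median log2 fold change of the tested members in the authors' deposited tables was -0.28 at the zygotic step in B6CASTF1 (0.00 over all genes), 0.82 at the zygotic step in C57BL/6J (0.12 over all genes), and -0.40 between C57BL/6J G1 zygotes and MII eggs (-0.08 over all genes). Consecutive comparisons of a strain share the samples of the stage between them, so their values are not independent.

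**Figure D1:**
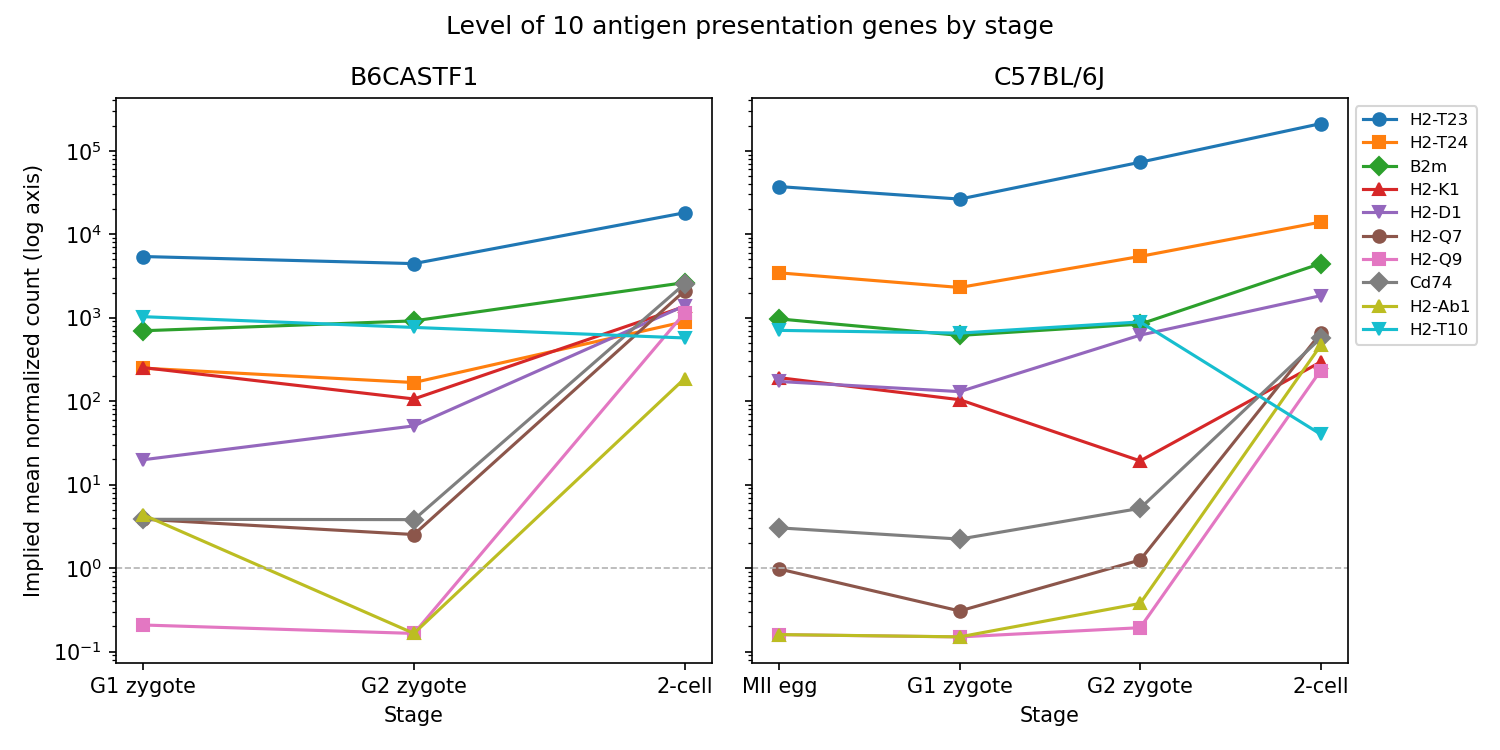
Level (approximate mean normalized count, log axis) of 10 members by stage, in B6CASTF1 (left) and C57BL/6J (right). Each point is the mean of 3 samples, or of 2 for B6CASTF1 2-cell embryos, the tables give no spread per stage, and the dashed line marks a level of 1. H2-T23 lies between 4440 and 210833 over the stages, and H2-Q7, H2-Q9 and Cd74 lie under 10 until the 2-cell embryo.

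The T region encodes non-classical class I heavy chains, and its best measured gene rose into the 2-cell embryo of both strains. H2-T23 encodes Qa-1, the mouse counterpart of human HLA-E, which presents leader peptides of other class I chains to receptors of natural killer cells. Its level was 5400, 4440 and 18040 in B6CASTF1 G1 zygotes, G2 zygotes and 2-cell embryos. In C57BL/6J MII eggs, G1 zygotes, G2 zygotes and 2-cell embryos it was 37155, 26330, 72793 and 210833. The 2-cell embryo was the highest stage in each strain, and the C57BL/6J levels stood above the B6CASTF1 levels at all 3 stages that both strains have. H2-T23 made up 0.0401% of the summed mean counts in B6CASTF1 and 0.449% in C57BL/6J. Per kilobase of its longest transcript its level was 6828 in B6CASTF1 2-cell embryos, against 3057 for B2m, and 79800 in C57BL/6J 2-cell embryos, against 5167 for B2m.

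H2-T23 rose into the 2-cell embryo by 2.02 ± 0.22 in B6CASTF1 (log2 fold change ± SE, adjusted p = 7.66e-20) and by 1.53 ± 0.48 in C57BL/6J (adjusted p = 0.00391) in the authors' deposited tables. Between G2 and G1 zygotes it had a log2 fold change of -0.28 ± 0.19 in B6CASTF1 (adjusted p = 0.354) and rose by 1.47 ± 0.48 in C57BL/6J (adjusted p = 0.0322) in the authors' deposited tables.

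H2-T24, a neighbouring non-classical gene, had levels of 248, 167 and 895 over the B6CASTF1 stages and of 3441, 2299, 5418 and 13947 over the C57BL/6J stages. It rose into the B6CASTF1 2-cell embryo by 2.42 ± 0.98 (adjusted p = 0.0248) in the authors' deposited table. In C57BL/6J the same step gave 1.36 ± 0.62 (adjusted p = 0.0556) by the authors' deposited table and was not called. Its transcripts share 3.31% of their 31-base words with other members found in GENCODE, and those of H2-T23 share 10.8%. Reads of both genes can thus mostly be told from those of these members.

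H2-T3 encodes the thymus leukaemia antigen, a class I chain known from intestinal epithelium. Its level was 20.4, 16.96 and 77.7 over the B6CASTF1 stages and 47.7, 15.0, 79.1 and 115 over the C57BL/6J stages. It rose between C57BL/6J G2 and G1 zygotes by 2.40 ± 0.71 (adjusted p = 0.0147) by the authors' deposited table. The 2-cell step was not called for H2-T3 in B6CASTF1 (2.20 ± 1.23, adjusted p = 0.114) or C57BL/6J (0.53 ± 0.69, adjusted p = 0.544) in the authors' deposited tables. H2-T9 and H2-Bl were tested in B6CASTF1 and had no adjusted p in C57BL/6J. H2-T9 stood at 12.7 in B6CASTF1 G2 zygotes and at under 1 in G1 zygotes (adjusted p = 0.0208), and it rose into the 2-cell embryo, to 296, by 4.54 ± 1.82 (adjusted p = 0.0232) in the authors' deposited tables. H2-Bl rose into the B6CASTF1 2-cell embryo, where its level was 288 against 5.82 in G2 zygotes, by 5.63 ± 1.69 (adjusted p = 0.0019) in the authors' deposited table.

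H2-T10, whose product binds a receptor of gamma delta T cells, fell in C57BL/6J, where its neighbour H2-T23 rose. Its level was 1028, 764 and 572 over the B6CASTF1 stages and 704, 653, 889 and 40.2 over the C57BL/6J stages. In the C57BL/6J 2-cell embryo it fell by 4.47 ± 1.05 (log2 scale, adjusted p = 9.25e-05), and it was not called in B6CASTF1 (-0.42 ± 0.27, adjusted p = 0.163), in the authors' deposited tables. Its transcripts share 47.6% of their 31-base words with H2-T22, and GENCODE lists H2-T10 as a polymorphic pseudogene, so its counts and those of H2-T22 are uncertain. H2-T22 had a mean count of 0 in C57BL/6J, and in B6CASTF1 its level was 35.3 in 2-cell embryos and under 1 in G2 zygotes (adjusted p = 0.0783 by the authors' deposited table).

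The classical class I chains, which present peptides to cytotoxic T cells, were present before the 2-cell stage. H2-K1 had levels of 252, 106 and 1361 over the B6CASTF1 stages and of 191, 104, 19.2 and 294 over the C57BL/6J stages. In both strains its G2 zygote was the lowest stage and its 2-cell embryo the highest. In the authors' deposited table of B6CASTF1 it fell between G2 and G1 zygotes by 1.25 ± 0.31 on the log2 scale (adjusted p = 0.000633). At the next step, in the authors' deposited table, it rose by 3.68 ± 0.34 (adjusted p = 1.10e-26). In C57BL/6J the SE was larger: -2.43 ± 2.46 between the zygotes (adjusted p = 0.7) and 3.93 ± 2.46 into the 2-cell embryo (adjusted p = 0.173) in the authors' deposited tables, neither called.

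H2-D1 had levels of 19.9, 50.5 and 1387 over the B6CASTF1 stages and of 172, 130, 618 and 1832 over the C57BL/6J stages. It rose into the B6CASTF1 2-cell embryo by 4.78 ± 0.59 (adjusted p = 2.84e-15) by the authors' deposited table. The C57BL/6J step was 1.57 ± 0.83 (adjusted p = 0.103) by the authors' deposited table and was not called. H2-D1 and H2-K1 share 23.2% and 22.7% of their 31-base words with other members, so some reads of both cannot be told from those of other members. H2-K2, listed as a transcribed pseudogene, had a mean count of 0 in C57BL/6J. Its level in B6CASTF1 was 269 in 2-cell embryos and under 1 in both zygote groups (adjusted p = 0.0246 at the 2-cell step in the authors' deposited table, with an SE of 4.33).

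Transcripts of the Q region, home of Qa-2, were near 0 before the 2-cell embryo, apart from those of H2-Q4, and rose there in both strains. Its summed level was 6897 in B6CASTF1 2-cell embryos against 38.0 in G2 zygotes, and 1311 in C57BL/6J 2-cell embryos against 73.9 in G2 zygotes. At the 2-cell step 8 of 9 tested Q genes rose and 0 fell in B6CASTF1, and 4 of 5 rose and 0 fell in C57BL/6J. Over all genes tested, 33.1% rose and 26.8% fell in B6CASTF1, and 25% rose and 25.3% fell in C57BL/6J. The number of Q genes with a level of at least 10 was 9 of 9 in B6CASTF1 2-cell embryos against 1 in G2 zygotes, and 6 of 9 in C57BL/6J 2-cell embryos against 1 in G2 zygotes.

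H2-Q7, which encodes the Qa-2 heavy chain, had levels of 3.85, 2.52 and 2095 over the B6CASTF1 stages. In C57BL/6J it stood at under 1 in MII eggs and G1 zygotes, at 1.25 in G2 zygotes and at 650 in 2-cell embryos. Into the 2-cell embryo it rose by 9.70 ± 0.75 in B6CASTF1 (adjusted p = 3.25e-37) and by 9.02 ± 1.19 in C57BL/6J (adjusted p = 5.91e-13) in the authors' deposited tables. H2-Q9, a second Qa-2 gene, was under 1 at every stage before the 2-cell embryo in both strains. It reached 1138 in B6CASTF1 2-cell embryos (adjusted p = 0.00647, with an SE of 4.33) and 232 in C57BL/6J 2-cell embryos (adjusted p = 0.00165, with an SE of 2.95), by the authors' deposited tables. H2-Q8 and H2-Q6, also counted among the Qa-2 genes, reached 521 and 108 in B6CASTF1 2-cell embryos from under 1 in G2 zygotes (adjusted p = 9.57e-15 and 9.01e-05 in the authors' deposited table). In C57BL/6J H2-Q8 had a mean count of 0, and H2-Q6 had a level of 15.7 in 2-cell embryos without an adjusted p.

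H2-Q10 encodes a secreted class I chain known from liver. Its level was 4.73, 8.69 and 1124 over the B6CASTF1 stages, and in C57BL/6J it was 195 in 2-cell embryos and under 1 before. It rose into the B6CASTF1 2-cell embryo by 7.02 ± 2.19 (adjusted p = 0.00284) and was also called higher in C57BL/6J 2-cell embryos (adjusted p = 0.00436) in the authors' deposited tables. H2-Q5, a polymorphic pseudogene in GENCODE, stood at 2.56, 2.12 and 1090 over the B6CASTF1 stages. It rose there into the 2-cell embryo by 9.01 ± 0.79 (adjusted p = 6.43e-29) in the authors' deposited table. In C57BL/6J it was at 178 in 2-cell embryos and under 1 before (adjusted p = 0.00675 in the authors' deposited table).

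H2-Q4 parted between the strains: its level was 4.96, 21.4 and 702 over the B6CASTF1 stages and 23.1, 17.8, 71.7 and 40.6 over the C57BL/6J stages. It rose into the B6CASTF1 2-cell embryo by 5.03 ± 1.01 (adjusted p = 2.03e-06) and was not called in C57BL/6J (-0.82 ± 1.65, adjusted p = 0.71) in the authors' deposited tables. H2-Q2 was at 95.3 in B6CASTF1 2-cell embryos and under 1 in G2 zygotes (adjusted p = 0.000916), and H2-Q1 at 23.4 and 2.58 (adjusted p = 0.481), by the authors' deposited table. The Q genes resemble one another closely: 57.2% of the 31-base words of the H2-Q5 transcripts, 42.9% for H2-Q6 and 36.6% for H2-Q7 occur in other members found in GENCODE. H2-Q8 and H2-Q9, not found there, were not compared, so these shares may be too low. The sources used here do not say how the counting divided reads that members share, so the split among Q genes is uncertain. Whether reads of the CAST alleles mapped equally well to mm10 was not tested.

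**Figure D2:**
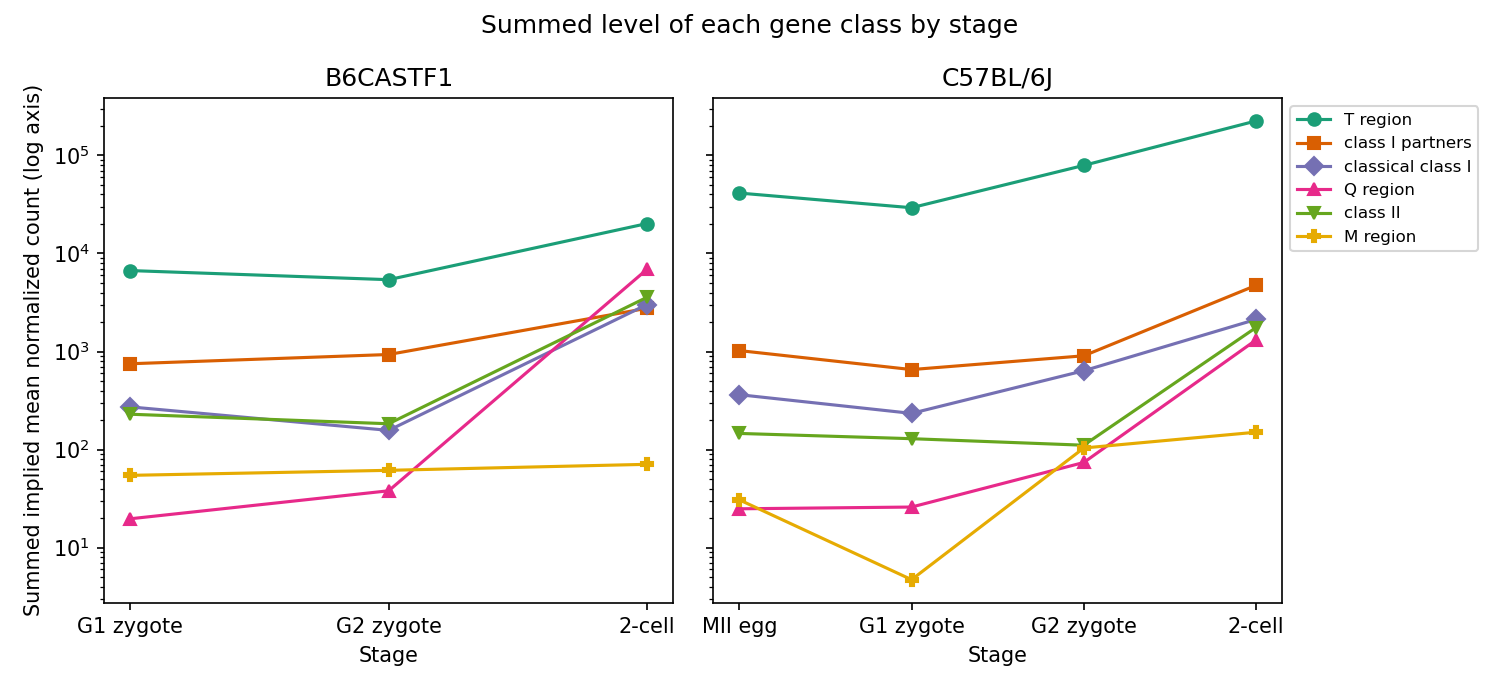
Summed level (log axis) of each gene class by stage, in B6CASTF1 (left) and C57BL/6J (right); points are sums over the members of a class of the approximate mean normalized counts. From G2 zygotes to 2-cell embryos the Q region shows the steepest line in both strains, with sums of 6897 (B6CASTF1) and 1311 (C57BL/6J) in 2-cell embryos.

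Of the partners of class I chains, the light chain was measured well. B2m, without which most class I chains do not reach the surface, had levels of 697, 915 and 2629 over the B6CASTF1 stages and of 965, 613, 837 and 4443 over the C57BL/6J stages. It rose into the 2-cell embryo by 1.52 ± 0.42 in B6CASTF1 (adjusted p = 0.000745) and by 2.41 ± 0.40 in C57BL/6J (adjusted p = 1.94e-08) in the authors' deposited tables. The B2m transcripts share 0 of their 31-base words with other members.

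Tapbp had levels of 52.1, 17.1 and 123 over the B6CASTF1 stages and of 54.5, 41.6, 68.1 and 286 over the C57BL/6J stages. Its 2-cell step was not called in B6CASTF1 (2.85 ± 1.37, adjusted p = 0.0611) or C57BL/6J (2.07 ± 1.03, adjusted p = 0.0803) in the authors' deposited tables. The peptide pump itself was hardly seen. Tap1 had a level of 8.04 in B6CASTF1 2-cell embryos and a mean count of 0 in C57BL/6J. Tap2 reached at most 1.30 in B6CASTF1, in G1 zygotes, and 2.48 in C57BL/6J, in MII eggs, and was under 1 in the 2-cell embryos of both strains. Neither had an adjusted p, and at levels this low the tables cannot show whether the transcripts were absent.

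Promoter sequences of 5 genes of the class I pathway, each called higher at the 2-cell step in at least 1 strain, are shown because they carry letters of known MHC control elements. The upstream regions of MHC genes hold an X2 box, bound by CREB-type factors, and a Y box, bound by NF-Y, which work as a spaced unit; some also hold an interferon response element. In the 250 bases before the RefSeq start site (RefSeq, GRCm38.p6), capitals mark TGACG, the core of the X2 box, ATTGG, the Y box, and an interferon response element read as GAAA, any 2 bases and GAAA, each on either strand. H2-Q7 lies at chr17:35438905-35439154 (plus strand), H2-Q6 at chr17:35424600-35424849 (plus), H2-D1 at chr17:35262844-35263093 (plus), H2-T23 at chr17:36032702-36032951 (minus) and B2m at chr2:122147437-122147686 (plus).
H2-Q7: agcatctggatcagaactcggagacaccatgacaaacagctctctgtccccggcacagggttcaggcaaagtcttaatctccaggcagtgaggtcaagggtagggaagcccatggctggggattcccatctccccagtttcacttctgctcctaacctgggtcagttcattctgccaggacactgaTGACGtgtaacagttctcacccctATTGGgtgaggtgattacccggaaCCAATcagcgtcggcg
H2-Q6: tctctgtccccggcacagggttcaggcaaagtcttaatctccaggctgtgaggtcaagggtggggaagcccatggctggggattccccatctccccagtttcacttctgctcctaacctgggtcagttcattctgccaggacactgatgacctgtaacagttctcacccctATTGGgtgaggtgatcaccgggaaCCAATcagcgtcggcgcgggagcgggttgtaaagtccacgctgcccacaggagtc
H2-D1: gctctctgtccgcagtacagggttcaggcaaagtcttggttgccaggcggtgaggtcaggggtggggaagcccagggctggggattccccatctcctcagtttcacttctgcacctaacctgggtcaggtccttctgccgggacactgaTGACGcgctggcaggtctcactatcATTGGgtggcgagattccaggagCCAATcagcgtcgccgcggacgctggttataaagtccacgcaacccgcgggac
H2-T23: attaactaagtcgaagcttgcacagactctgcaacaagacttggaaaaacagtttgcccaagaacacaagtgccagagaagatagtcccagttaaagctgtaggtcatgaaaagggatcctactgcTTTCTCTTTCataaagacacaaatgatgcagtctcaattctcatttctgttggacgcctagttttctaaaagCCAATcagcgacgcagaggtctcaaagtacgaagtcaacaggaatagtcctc
B2m: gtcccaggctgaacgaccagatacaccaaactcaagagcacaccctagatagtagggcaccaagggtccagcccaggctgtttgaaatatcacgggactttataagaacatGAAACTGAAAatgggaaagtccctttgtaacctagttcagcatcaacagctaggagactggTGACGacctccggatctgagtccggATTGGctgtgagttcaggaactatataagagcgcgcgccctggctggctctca
H2-Q7, H2-D1 and B2m show TGACG followed by ATTGG, with 24, 25 and 25 bases from the first letter of one to the first letter of the other. H2-Q6 holds ATTGG and its reverse complement CCAAT without TGACG. H2-T23 holds CCAAT and the interferon response element on the other strand, and B2m also holds that element. For H2-D1 and H2-T23 the RefSeq start lies inside the gene as GENCODE M21 draws it.

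RefSeq held 37 promoters (250 bases before and 50 after the start) of 34 members. TGACG occurred in 15 of them (40.5%), against 20.8% of 32851 promoters in the table. ATTGG occurred in 33 (89.2%), against 37.4% of all promoters, and the interferon response element in 3 (8.11%), against 3.44%. TGACG followed on its strand by ATTGG at 24 to 26 bases, a spacing chosen after the matches were seen, occurred in 7 member promoters (18.9%), against 38 of all promoters (0.116%). The 6 genes with that unit were B2m, H2-K1, H2-Aa, H2-D1, H2-Q7 and H2-M3, and they did not move alike at the 2-cell step. B2m and H2-Q7 rose in both strains, H2-K1 and H2-D1 rose in B6CASTF1, H2-Aa fell in C57BL/6J, and H2-M3 had no adjusted p in any table. A match describes letters and is not a measured binding site.

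Some class II genes and their chaperones also rose in 2-cell embryos. The summed level of the 11 class II genes was 3576 in B6CASTF1 2-cell embryos against 183 in G2 zygotes, and 1757 in C57BL/6J 2-cell embryos against 111 in G2 zygotes. At that step 4 of 9 tested genes rose and 0 fell in B6CASTF1, and 3 of 6 rose and 1 fell in C57BL/6J, beside the 33.1% of all genes that rose in B6CASTF1 and the 25% in C57BL/6J. Cd74 had levels of 3.84, 3.81 and 2536 over the B6CASTF1 stages and of 3.03, 2.23, 5.20 and 567 over the C57BL/6J stages. It rose into the 2-cell embryo by 9.38 ± 0.70 in B6CASTF1 (adjusted p = 3.36e-40) and by 6.77 ± 1.46 in C57BL/6J (adjusted p = 1.74e-05) in the authors' deposited tables. The Cd74 transcripts share 0 of their 31-base words with other members.

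The class II pair H2-Ab1 and H2-Aa, the beta and alpha chains of I-A, did not move together. H2-Ab1 was at 186 in B6CASTF1 2-cell embryos and under 1 in G2 zygotes (adjusted p = 3.91e-06), and at 464 in C57BL/6J 2-cell embryos and under 1 before (adjusted p = 0.00538), in the authors' deposited tables. H2-Aa had levels of 67.2, 67.9 and 27.1 over the B6CASTF1 stages and of 81.7, 19.8 and 37.6 in C57BL/6J MII eggs, G1 zygotes and G2 zygotes, with under 1 in 2-cell embryos. It fell in C57BL/6J (adjusted p = 3.10e-14) and was not called in B6CASTF1 (-1.32 ± 1.03, adjusted p = 0.26) in the authors' deposited tables. H2-Eb1, the beta chain of I-E, was at 264 in B6CASTF1 2-cell embryos against 13.2 in G2 zygotes (4.32 ± 2.10, adjusted p = 0.0652), and under 1 in both of these stages of C57BL/6J (adjusted p = 0.956), in the authors' deposited tables. Its earlier levels were 22.0 in B6CASTF1 G1 zygotes, and 26.7 and 16.2 in C57BL/6J MII eggs and G1 zygotes. Its alpha chain partner H2-Ea-ps, a polymorphic pseudogene in GENCODE, had a mean count of 0 in C57BL/6J. In B6CASTF1 it was at 12.2 in G1 zygotes and under 1 in G2 zygotes and 2-cell embryos.

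H2-DM exchanges peptides on class II molecules in endosomes. Its alpha chain H2-DMa had levels of 8.49, 8.92 and 335 over the B6CASTF1 stages, and in C57BL/6J it was at 6.02 in MII eggs, 5.91 in G1 zygotes, under 1 in G2 zygotes and 704 in 2-cell embryos. It was called higher in C57BL/6J 2-cell embryos (adjusted p = 2.91e-06) and not in B6CASTF1 2-cell embryos (5.23 ± 3.06, adjusted p = 0.129) in the authors' deposited tables. The log2 fold change of H2-DMa in B6CASTF1 minus that in C57BL/6J was -6.60 ± 3.86 and was not called (adjusted p = 0.262). Its beta chains had no adjusted p in C57BL/6J, so no difference between the strains was tested for them. H2-DMb1 and H2-DMb2 were at 59.3 and 83.4 in B6CASTF1 2-cell embryos and under 1 in G2 zygotes (adjusted p = 0.0126 and 0.00243 in the authors' deposited table), while in C57BL/6J 2-cell embryos H2-DMb1 was under 1 and H2-DMb2 had a mean count of 0. H2-Oa, which restrains H2-DM, had levels of 97.4, 88.8 and 79.1 over the B6CASTF1 stages and of 27.5, 84.4, 58.0 and 20.1 over the C57BL/6J stages, with no call in any of the authors' deposited tables.

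Markers of immune and blood cells, which carry much class II RNA in adult tissue, moved in part with these genes. The summed level of 16 such markers was 3847 in B6CASTF1 2-cell embryos against 292 in G2 zygotes, and 4342 in C57BL/6J 2-cell embryos against 236 in G2 zygotes. Most of it was the alpha globin Hba-a1, at 2858 and 5.25 in the B6CASTF1 groups and at 3827 and 81.1 in the C57BL/6J groups, while the beta globin Hbb-bs was at 0 in all. Hba-a1 rose in B6CASTF1 (adjusted p = 2.97e-38) and had no adjusted p in C57BL/6J, in the authors' deposited tables. Coro1a, an actin regulator of leukocytes, was at 253 in B6CASTF1 2-cell embryos and 256 in C57BL/6J 2-cell embryos, and under 1 in the G2 zygotes of both. Cd79a, of the B cell receptor, and Lyz2, of macrophages, were at 247 and 82.1 in B6CASTF1 2-cell embryos and at 0 in C57BL/6J 2-cell embryos. Cd68, a macrophage marker, rose to 365 in B6CASTF1 2-cell embryos, against 28.1 in G2 zygotes (adjusted p = 0.00333), and was at 82.5 in C57BL/6J 2-cell embryos, against 17.9 in G2 zygotes, without a call (adjusted p = 0.628), in the authors' deposited tables. Fcer1g, without an adjusted p, was at 7.08 in B6CASTF1 and 40.8 in C57BL/6J 2-cell embryos and under 1 in the G2 zygotes of both. Itgam, not called, was at 22.6 in B6CASTF1 2-cell embryos against 63.3 in G2 zygotes, and at 127 in C57BL/6J 2-cell embryos against 74.6 in G2 zygotes. Laptm5 fell in B6CASTF1, to 5.31 in 2-cell embryos against 175 in G2 zygotes (adjusted p = 2.75e-09 in the authors' deposited table). Tyrobp, Adgre1 and Cd3e were at 0, and Ptprc, Csf1r and Itgax at or under 0.233, in the 2-cell embryos of both strains. Of the 16 markers 5 of 8 tested rose and 1 fell in B6CASTF1, and 1 of 5 tested rose and 0 fell in C57BL/6J. The part of such cells in the class II result was not tested.

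The M region, whose M1 and M10 genes are known from vomeronasal neurons and whose H2-M3 presents formylated peptides, had low summed levels. Its summed level over 12 genes was 54.6, 61.4 and 70.7 over the B6CASTF1 stages and 30.7, 4.71, 104 and 150 over the C57BL/6J stages. H2-M5 stood at 40.6, 45.8 and 22.1 over the B6CASTF1 stages, without a call. H2-M10.3 stood at 45.4 in C57BL/6J G2 zygotes and under 1 in G1 zygotes (adjusted p = 0.214 in the authors' deposited table). Of the M genes with a test, 2 in B6CASTF1 and 1 in C57BL/6J at the 2-cell step, 0 were called by the authors' DESeq2 test and 0 had an unadjusted p under 0.05, at adjusted p from 0.0956 to 0.57 in the authors' deposited tables. Most of the C57BL/6J 2-cell sum was H2-M10.4, at 149, for which the authors' deposited table gives no p-value.

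**Figure D3:**
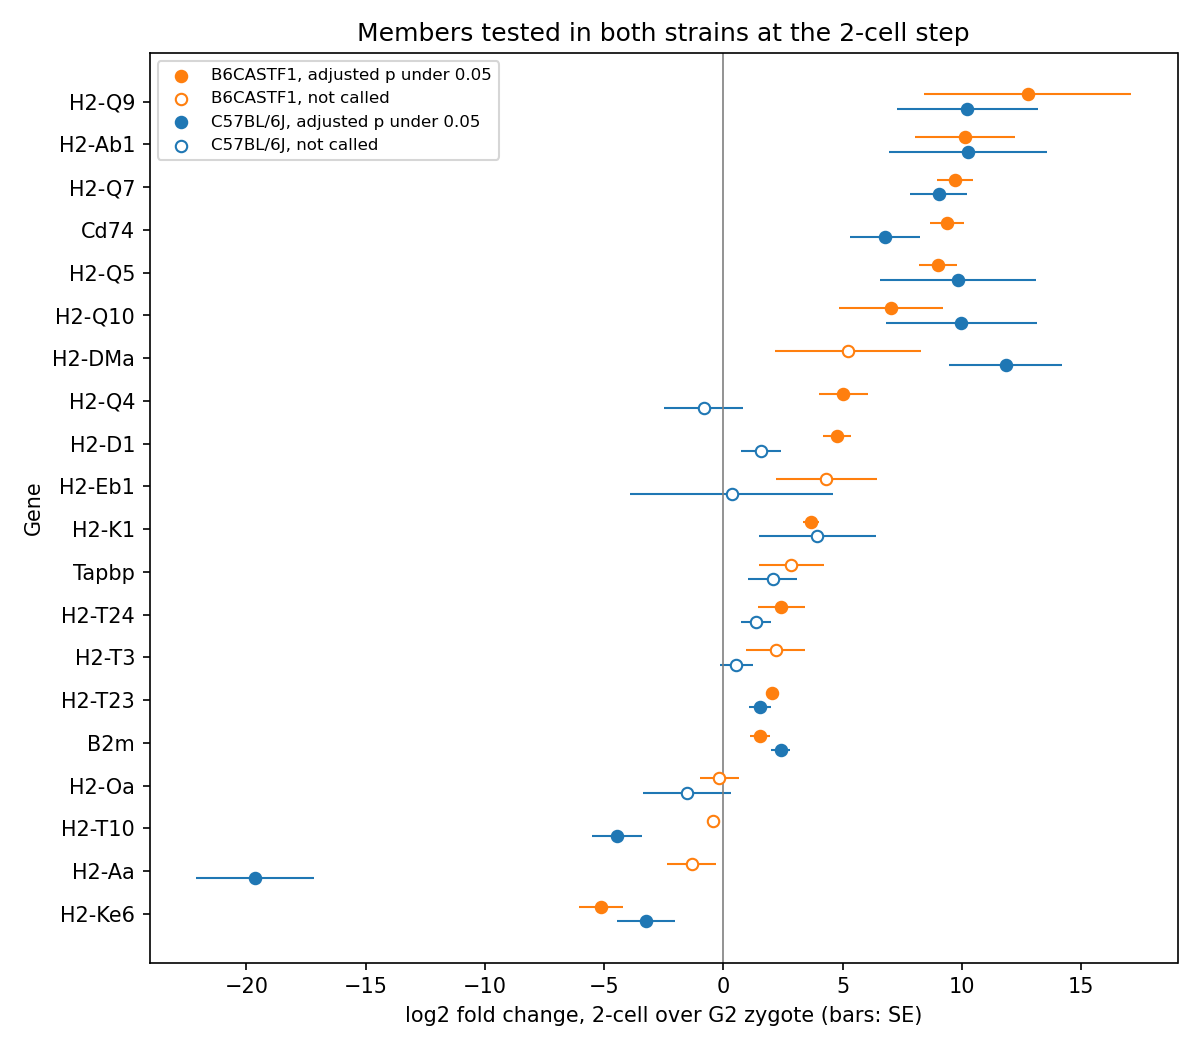
The log2 fold change of 2-cell embryos over G2 zygotes, with the authors' SE as bars, for the 20 members tested in both strains, B6CASTF1 above C57BL/6J in each row; filled points have an adjusted p under 0.05. Of the 20, 8 rose in both strains and only H2-Ke6 fell in both. Folds of genes near 0 at 1 stage, such as H2-Aa in C57BL/6J, have no firm size.

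Of the 20 members tested in both strains at the 2-cell step, 8 rose in both: B2m, Cd74, H2-Ab1, H2-Q5, H2-Q7, H2-Q9, H2-Q10 and H2-T23. These are 8 of the 20 that rose in B6CASTF1 and 8 of the 9 that rose in C57BL/6J. H2-Ke6 fell in both, with a level of 7.53 in B6CASTF1 2-cell embryos against 260 in G2 zygotes (-5.11 ± 0.92, adjusted p = 1.09e-07) and of 8.31 in C57BL/6J 2-cell embryos against 78.8 in G2 zygotes (-3.25 ± 1.22, adjusted p = 0.0183), by the authors' deposited tables. Opposite calls numbered 0. Of the other genes that rose in B6CASTF1, 4 were tested without a call in C57BL/6J (H2-D1, H2-K1, H2-Q4 and H2-T24) and 8 were not tested there.

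A difference in call is not a difference in response, so the difference itself was tested. The log2 fold change in B6CASTF1 minus that in C57BL/6J was divided by the combined SE, and p-values were adjusted over every gene that had a test in each strain. At the 2-cell step 4 of 20 members differed (20 tested, 4 at an unadjusted p under 0.05), against 16.6% of all genes, so the members' share lay near the background. H2-T10 differed by 4.05 ± 1.09 (adjusted p = 0.00255), H2-D1 by 3.21 ± 1.02 (adjusted p = 0.0143) and H2-Q4 by 5.85 ± 1.94 (adjusted p = 0.0198). H2-Aa also differed (adjusted p = 1.24e-09), with levels of 27.1 and 67.9 in B6CASTF1 2-cell embryos and G2 zygotes and of under 1 and 37.6 in those of C57BL/6J. All 4 had a higher log2 fold change in B6CASTF1 than in C57BL/6J at that step.

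For most other members the test was too coarse to call the strains alike: the 95% interval of the difference reached a median of 3.57 to each side. H2-T23 had the narrowest, 0.49 with an interval of -0.54 to 1.52, and B2m had -0.89 with an interval of -2.03 to 0.26. H2-Q7 differed by 0.68 with an interval of -2.08 to 3.44, and Cd74 by 2.61 with an interval of -0.56 to 5.78. At the zygotic step 1 of 20 members differed, against 1.92% of all genes. That member was H2-T23, whose log2 change was 1.75 ± 0.52 lower in B6CASTF1 (a difference of -1.75, adjusted p = 0.0418), a call that was lost when fold changes were recentred.

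The machinery around the members was read from lists of related genes, each set beside the 33.1% (B6CASTF1) and 25% (C57BL/6J) of all tested genes that rose at the 2-cell step, and the 26.8% and 25.3% that fell. Of 7 genes of the immunoproteasome and its regulators, which shape peptides for class I, 4 of 5 tested rose and 0 fell into the B6CASTF1 2-cell embryo, and 2 of 4 rose and 0 fell in C57BL/6J. Those that rose were Psme1, Psme2, Pomp and Psmb10 in B6CASTF1, and Psme1 and Psmb10 in C57BL/6J. Psmb8 and Psmb9, also listed, were called in neither strain, and not both of them had a test in B6CASTF1. Psme1, an activator subunit of the proteasome, had a level of 1179 in B6CASTF1 2-cell embryos against 1.19 in G2 zygotes (9.95 ± 0.87, adjusted p = 3.88e-29) and of 1442 against 1.73 in C57BL/6J (9.70 ± 0.99, adjusted p = 6.69e-21), by the authors' deposited tables. Psmb10, a catalytic subunit of the immunoproteasome, rose by 7.74 ± 2.60 in B6CASTF1 (adjusted p = 0.00587) and by 9.50 ± 1.78 in C57BL/6J (adjusted p = 6.37e-07) in the authors' deposited tables. Of the constitutive catalytic subunits 2 of 3 tested rose and 0 fell in each strain. Psmb5, the subunit that the immunoproteasome exchanges for its inducible form, rose by 4.43 ± 0.27 in B6CASTF1 (adjusted p = 6.63e-61) and by 6.98 ± 0.33 in C57BL/6J (adjusted p = 2.53e-95) in the authors' deposited tables.

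Of 12 genes of peptide loading and chaperoning, 8 of 12 tested rose and 0 fell into the B6CASTF1 2-cell embryo (33.1% of all genes rose), and 3 of 10 rose and 1 fell in C57BL/6J, where the share that rose lay near the 25% of all genes. Pdia3, the disulfide isomerase of the loading complex, rose by 2.91 ± 0.23 in B6CASTF1 (adjusted p = 4.08e-34) and by 3.19 ± 0.36 in C57BL/6J (adjusted p = 1.70e-17) in the authors' deposited tables. Tapbpl, a relative of tapasin that edits peptides, rose by 3.63 ± 0.87 in B6CASTF1 (adjusted p = 8.77e-05) and by 2.36 ± 0.80 in C57BL/6J (adjusted p = 0.00835) in the authors' deposited tables. The gene that fell in C57BL/6J was Ganab, a glucosidase of glycoprotein folding, at under 1 in 2-cell embryos and 81.6 in G2 zygotes (adjusted p = 1.63e-08 in the authors' deposited table). These chaperones serve secreted proteins at large, not class I alone.

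Of 8 endosomal genes of class II processing, 4 of 6 tested rose and 0 fell in B6CASTF1, and 5 of 7 rose and 0 fell in C57BL/6J. Ctsb, a lysosomal protease, rose by 5.90 ± 0.19 in B6CASTF1 (adjusted p = 1.75e-208) and by 7.05 ± 0.96 in C57BL/6J (adjusted p = 2.40e-12) in the authors' deposited tables. Ifi30, a thiol reductase of the endosome, rose by 7.95 ± 1.60 in B6CASTF1 (adjusted p = 2.26e-06) and by 5.07 ± 1.82 in C57BL/6J (adjusted p = 0.0133) in the authors' deposited tables.

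Of 12 transcription factors known to drive MHC genes, 6 of 10 tested rose and 1 fell in B6CASTF1 (33.1% of all genes rose), and 2 of 9 rose and 0 fell in C57BL/6J, where the share that rose lay near the 25% of all genes. The 6 were Nfyb, Rfxap, Rfxank, Creb1, Irf1 and Nfyc. Nlrc5 and Ciita, also listed, were called in neither strain. Nfyb, a subunit of the Y box factor NF-Y, rose by 3.68 ± 0.18 in B6CASTF1 (adjusted p = 3.27e-89) and by 2.44 ± 0.30 in C57BL/6J (adjusted p = 1.02e-14) in the authors' deposited tables. Rfxap, a subunit of the X box factor RFX, rose by 2.62 ± 0.29 in B6CASTF1 (adjusted p = 1.74e-18), where another subunit, Rfx5, fell by 2.66 ± 0.53 (adjusted p = 1.57e-06), in the authors' deposited table.

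Interferon is the classical inducer of MHC genes in adult tissue. Of 11 interferon receptor and signalling genes, 6 of 11 tested rose and 1 fell in B6CASTF1 (33.1% of all genes rose), and 3 of 9 rose and 1 fell in C57BL/6J, where the share that rose lay near the 25% of all genes. Ifnar1, a receptor chain, rose by 4.20 ± 0.51 in B6CASTF1 (adjusted p = 1.67e-15) and by 3.21 ± 0.47 in C57BL/6J (adjusted p = 5.71e-11), while the kinase gene Jak1 fell by 2.29 ± 0.34 in B6CASTF1 (adjusted p = 1.33e-10) and fell by 2.49 ± 0.85 in C57BL/6J (adjusted p = 0.00876), in the authors' deposited tables. Of 22 interferon-stimulated genes 9 of 15 tested rose and 2 fell in B6CASTF1, and 6 of 11 rose and 2 fell in C57BL/6J. Ifi35 rose by 10.47 ± 0.58 in B6CASTF1 (adjusted p = 6.73e-72) and by 10.70 ± 0.86 in C57BL/6J (adjusted p = 1.02e-33), while Ifitm3, an antiviral membrane protein, fell by 1.91 ± 0.21 in B6CASTF1 (adjusted p = 1.27e-18) and fell by 2.31 ± 0.44 in C57BL/6J (adjusted p = 9.75e-07), in the authors' deposited tables.

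Other genes of the chromosome 17 region were counted as neighbours of the members. Of 74 such genes found in the tables, all within the span of the members, 33 of 57 tested rose and 11 fell in B6CASTF1, and 15 of 49 rose and 5 fell in C57BL/6J. In C57BL/6J the share that rose lay near the 25% of all genes, and in B6CASTF1 33.1% of all genes rose. Of the members, 20 of 33 tested rose in B6CASTF1 and 9 of 21 in C57BL/6J, so in B6CASTF1 the share of neighbours that rose lay near that of the members. The neighbours' median log2 fold change was 2.27 in B6CASTF1 and 0.98 in C57BL/6J in the authors' deposited tables, below that of the members at 4.78 and 1.57. Among the neighbours Zfp57, a factor that keeps imprints, fell by 5.09 ± 0.26 in B6CASTF1 (adjusted p = 1.32e-82) and fell by 3.29 ± 0.32 in C57BL/6J (adjusted p = 9.60e-24) in the authors' deposited tables. Of 10 genes of class I regulation and class I receptors, 2 of 6 tested rose and 1 fell in each strain. The share that rose lay near the 33.1% of all genes in B6CASTF1 and the 25% in C57BL/6J. Among those that rose was Fcgrt, the heavy chain of the neonatal Fc receptor, at 976 in B6CASTF1 2-cell embryos (under 1 in G2 zygotes, adjusted p = 3.28e-20) and at 1136 in C57BL/6J 2-cell embryos (60.3 in G2 zygotes, adjusted p = 0.0395), by the authors' deposited tables.

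Between the zygote stages the lists changed at about the rate of all genes. With each gene counted once, 12 of 118 tested rose (10.2%) and 14 fell (11.9%) between B6CASTF1 G2 and G1 zygotes, against 9.63% and 9.63% of all genes. Between C57BL/6J G2 and G1 zygotes 5 of 110 rose (4.55%) and 3 fell (2.73%), against 5.01% and 2.87% of all genes. Between C57BL/6J G1 zygotes and MII eggs 4 of 111 rose (3.60%) and 0 fell, against 1.62% and 1.12% of all genes. At the 2-cell step 73 of 124 rose (58.9%) and 16 fell (12.9%) in B6CASTF1, and 39 of 107 rose (36.4%) and 10 fell (9.35%) in C57BL/6J. Psmb7, a catalytic proteasome subunit, had already risen between G2 and G1 zygotes, by 2.87 ± 0.37 in B6CASTF1 (adjusted p = 4.78e-13) and by 3.26 ± 0.50 in C57BL/6J (adjusted p = 1.28e-08) in the authors' deposited tables.

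**Figure D4:**
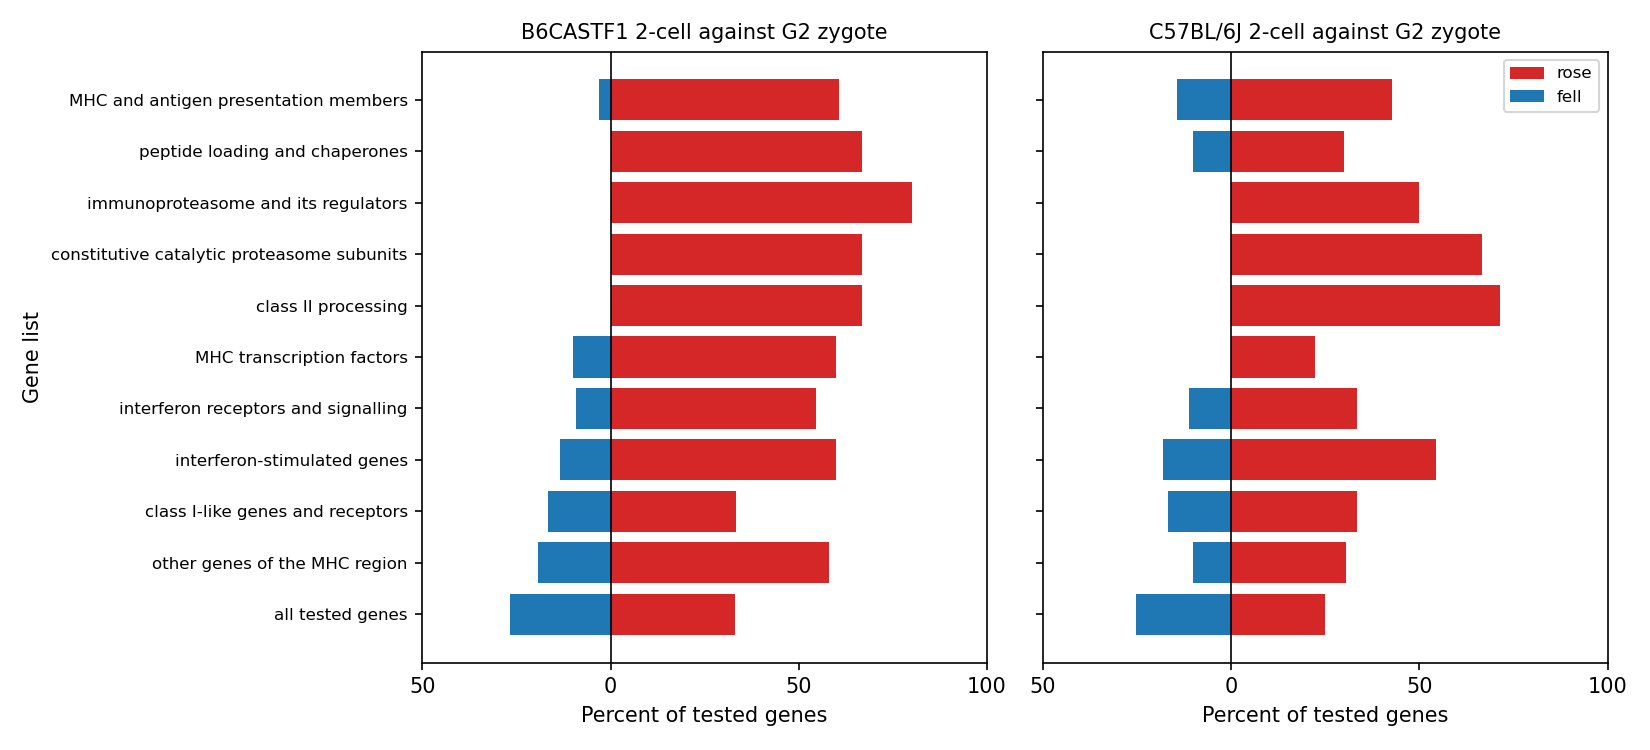
Percent of the tested genes of each list that rose (red, to the right) or fell (blue, to the left) in 2-cell embryos against G2 zygotes at the authors' adjusted p under 0.05, for B6CASTF1 (left) and C57BL/6J (right). The bottom row holds all tested genes, with 33.1% up in B6CASTF1 and 25% up in C57BL/6J, and the top row the members, with 60.6% and 42.9% up.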

How the data were processed

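Per the submitters' processing notes, the authors used mm10 with bcl2fastq, TopHat, kallisto, Picard and DESeq2, without the role of each. The authors' 5 deposited tables carry DESeq2 1.18.1 in their names. Their columns, per the file headers, are the mean normalized count, the log2 fold change and its SE, the Wald statistic (a score), the p-value, the adjusted p-value and a shrunken fold change on the log2 scale. No pool has a value of its own, so depth is unknown.

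The authors' test was kept, and an adjusted p left as NA was treated as no test. Stage levels came from the mean count and the fold changes, weighted by samples per stage. Strain differences used a normal p with Benjamini-Hochberg adjustment, tested on simulated data. Shared words of 31 bases were counted between genes, over all GENCODE M21 transcripts of each, and promoters came from RefSeq (GRCm38.p6). H2-L, H2-Q8, H2-Q9 and H2-T9, not found in GENCODE M21, were left out of the shared words. The members and lists were chosen with earlier results of these data known. Every member with an adjusted p could be named, and in each list the called genes with the 3 smallest p of a comparison. Further list genes were named where they limit the reading of a count. The alternatives were stricter thresholds, Bonferroni, no filter, a minimum mean count or change, recentring, a raised SE and equal weights. Scripts ran in Python 3.11.15 with matplotlib 3.10.9, scipy 1.17.1, pandas 2.3.3 and numpy 2.4.6.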

Additional observations from a re-analysis of the deposited data

Results flagged for a closer look

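The responses of 5 genes differed between the strains by the test of the difference itself. At the 2-cell step these were H2-Aa (adjusted p = 1.24e-09), H2-T10 (4.05 ± 1.09 on the log2 scale, adjusted p = 0.00255), H2-D1 (3.21 ± 1.02, adjusted p = 0.0143) and H2-Q4 (5.85 ± 1.94, adjusted p = 0.0198). Each had a higher log2 fold change in B6CASTF1 than in C57BL/6J. At the zygotic step it was H2-T23 (-1.75 ± 0.52, adjusted p = 0.0418). The p is a normal p, from the gap between the strains' fold changes divided by its SE, with Benjamini-Hochberg adjustment over every gene that had a test in each strain. H2-T10, H2-Q4 and H2-D1 share 48.9%, 30.9% and 23.2% of their 31-base words with other members found in GENCODE. The part of that in the differences was not tested, nor was that of how well reads of the CAST alleles mapped to mm10.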

How the results depend on the processing

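Leaving out a sample was not possible, because no pool has a value of its own. No paired analysis was possible because the result comes from the authors' comparison tables and the labels give no replicate numbers. Alternatives for the lists of related genes were added after seeing the data.

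Benjamini-Hochberg adjustment without the authors' filter and a minimum mean count of 10 left every count of members called within 1.5 times. Of the 2 members called at the C57BL/6J zygotic step, 0 were called at an adjusted p under 0.01, by Bonferroni or with the SE raised 1.5 times. Of the 2 at the B6CASTF1 zygotic step, 1 was called at 0.01 and 0 by the other settings. At the 2-cell step Bonferroni gave 10 of 21 in B6CASTF1 and 4 of 12 in C57BL/6J, and the raised SE gave 13 and 6. The strain difference of the zygotic step (1 member) fell to 0 at 0.01, by Bonferroni, recentred and with the raised SE. That of the 2-cell step (4 members) gave 2 at 0.01, 1 by Bonferroni and 1 with the raised SE.

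Recentring turned the sign of 4 values near 0, all without a call: H2-DMa between C57BL/6J G1 zygotes and MII eggs (0.047), Cd74 at the B6CASTF1 zygotic step (0.044), H2-Ea-ps at the B6CASTF1 2-cell step (-0.10) and B2m in the strain difference of the zygotic step (0.0308). Weighting B6CASTF1 stages equally changed its levels by a ratio of 0.75 to 1.12.

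Over all lists of related genes, the 4 calls between C57BL/6J G1 zygotes and MII eggs came to 2 at 0.01, 1 by Bonferroni and 0 with the raised SE. At the C57BL/6J zygotic step (8 calls) Bonferroni gave 4 and the raised SE 3, and at its 2-cell step (49 calls) 23 and 31. At the B6CASTF1 zygotic step the 26 calls became 15 at 0.01, 3 by Bonferroni, 16 with a minimum change of 1 and 6 with the raised SE, and at its 2-cell step (89 calls) 48 by Bonferroni. The cause of these moves was not tested beyond what each stricter setting does by construction.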
